A study of Mus musculus with 12 samples.

Results

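The machinery that sets the methylation of lysine 4 on histone H3 (H3K4) was followed through 10 of its genes in every RNA-seq library of a study of Polycomb repressive complex 1 (PRC1) in mouse spermatogonia. They were taken by name from a table of 55385 genes. The 10 are the methyltransferases *Kmt2a*, *Kmt2b*, *Kmt2c* and *Kmt2d*, the complex subunits *Men1*, *Wdr5*, *Ash2l* and *Rbbp5*, and the demethylases *Kdm5a* and *Kdm5b*. Methylation of H3K4 is written by large enzymes of the KMT2 family, which work only weakly until a shared core of WDR5, RBBP5, ASH2L and DPY30 is bound. KMT2A and KMT2B, with the protein menin from *Men1*, act mainly at promoters, KMT2C and KMT2D act mainly at enhancers, and the KDM5 enzymes remove the mark from promoters. H3K4 methylation is known to counteract Polycomb repression, and in spermatogonia many promoters of developmental genes carry it together with the Polycomb mark on lysine 27 of the same histone.

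The 12 libraries formed 6 groups of 2. A pair of groups came from wild-type (WT) C57BL/6 mice of 2 to 3 months (mo): undifferentiated spermatogonia (Aundiff, sorted as E-Cadherin+ CD9high KIT- cells) and differentiating spermatogonia (Adiff, sorted as E-Cadherin+ CD9medium KIT+ cells), and each library was made from pooled cells. The other 4 groups held Aundiff of mice on a mixed C57BL/6 and FVB/NJ background at 2 mo. PRC1cKO mice were *Ring1*-/-, *Rnf2* F/-, Ddx4-Cre, and their PRC1ctrl littermates were *Ring1*-/-, *Rnf2* F/+, Ddx4-Cre, so that both lacked the PRC1 ligase gene *Ring1*, and the Cre recombinase was driven by the germ cell promoter Ddx4. PRC1cKO and PRC1ctrl mice of one arm were untreated, and those of the other were injected daily, about 30 times from 1 mo of age, with 50 µl of 40 µg/µl Win18446, an inhibitor of retinoic acid synthesis that holds spermatogonia undifferentiated. The untreated 2 mo libraries were made by Smart-Seq2 from little RNA and all others with a stranded kit for polyadenylated RNA, so that treatment and library kit cannot be told apart when the treated and untreated arms are set side by side.

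Values were TPM, in which every transcript is a share of its library after correction for its length. Read numbers cannot be had from TPM, and the depth of each library is unknown. Between 12422 and 16599 genes per library reached 1 TPM, fewest in the 2 mo arm (12422 to 13986). Of 12 markers of undifferentiated spermatogonia none was under 1 TPM in both libraries of an Aundiff group, and 1 was under 1 TPM in 1 library of PRC1cKO at 2 mo. Among those markers, *Nanos2* and *Tspan8* were under 1 TPM in both WT Adiff libraries. *Ring1* stood at 8.61 to 19.9 TPM in WT and at 0.03 to 0.25 TPM in all libraries of the PRC1 mice. *Rnf2*, the conditionally deleted gene, had 28.3 and 47.6 TPM in PRC1ctrl and 56.7 and 67.5 TPM in PRC1cKO at 2 mo, and 78.1 and 67.2 TPM against 86.2 and 93.1 TPM after Win18446. It was thus not lower under the label PRC1cKO. A value for the whole gene does not separate the floxed exons, and genotypes are given here as the libraries are labelled.

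Among the methyltransferases, *Kmt2b* had the most transcript per length in WT cells, and all 4 genes stood highest in the treated libraries labelled PRC1ctrl. *Kmt2a* (chr9:44803355-44881296, minus strand, GRCm38), known from mixed-lineage leukaemia, had 7.31 and 9.98 TPM in WT Aundiff, 15.8 and 13.1 in WT Adiff, 2.35 and 2.57 in PRC1ctrl at 2 mo, 2.68 and 3.03 in PRC1cKO at 2 mo, 30.0 and 46.4 in PRC1ctrl after Win18446, and 5.16 and 13.1 in PRC1cKO after Win18446. Both treated PRC1ctrl libraries were above all others, and the treated PRC1cKO libraries overlapped those of WT Aundiff. *Kmt2b* (chr7:30568858-30588726, minus strand), the closest relative of *Kmt2a*, had, in the same order, 48.7 and 46.7, 68.2 and 86.3, 0.32 and 1.14, 1.38 and 3.69, 110.2 and 128, and 34.9 and 56.3 TPM. All 4 libraries of the 2 mo arm were under 4 TPM, and elsewhere the treated PRC1ctrl libraries were highest.

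*Kmt2c* (chr5:25271798-25498783, minus strand), which encodes an enhancer methyltransferase, had 9.95 and 10.8 TPM in WT Aundiff, 9.19 and 9.58 in WT Adiff, 7.36 and 6.09 in PRC1ctrl at 2 mo, 5.63 and 5.89 in PRC1cKO at 2 mo, 53.8 and 76.1 in treated PRC1ctrl, and 9.26 and 16.8 in treated PRC1cKO. Of its 12 values 10 lay between 5.63 and 16.8 TPM, and the 2 treated PRC1ctrl libraries lay apart above them. *Kmt2d* (chr15:98831669-98871204, minus strand), its paralog, had, in that order, 8.06 and 13.4, 7.82 and 10.1, 0.41 and 1.40, 0.78 and 1.59, 95.0 and 120.5, and 12.8 and 38.2 TPM. Here too the treated PRC1ctrl libraries were far above the rest, and the 2 treated PRC1cKO libraries differed widely from each other. A small part of the exons of *Kmt2a* (2.27%), *Kmt2c* (1.35%) and *Kdm5a* (1.77%) overlaps a gene on the other strand. Smart-Seq2 reads, carrying no strand, cannot tell such genes apart.

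**Figure D1:**
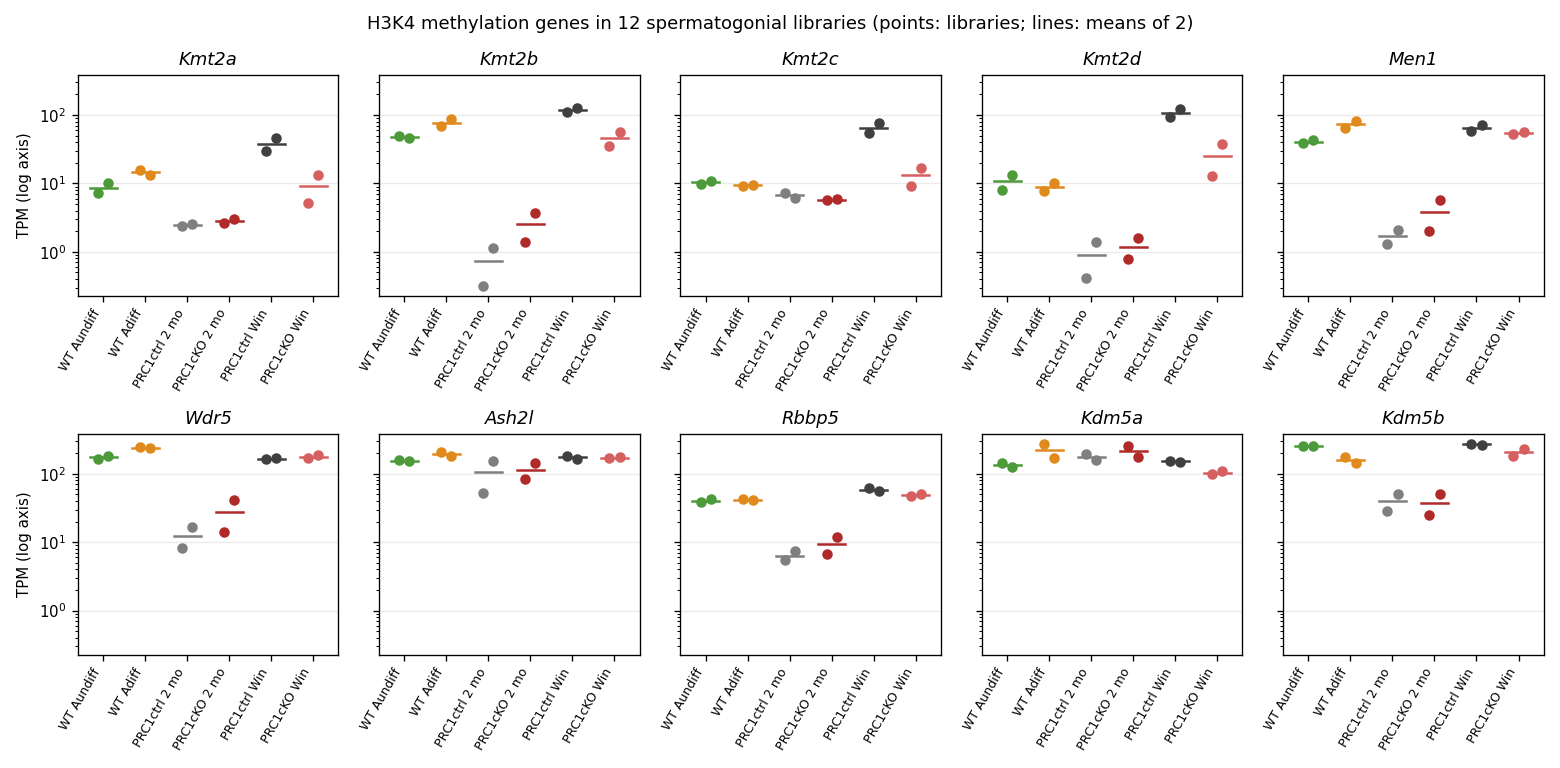
TPM (log axis) of the 10 genes in the 12 libraries, with points for libraries and a line for the mean of each group of 2. The Kmt2 panels show the treated PRC1ctrl libraries on top, and all panels but those of Ash2l and Kdm5a show the 4 libraries of the 2 mo arm below all others.

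The start regions of *Kmt2a*, *Kmt2c* and *Kmt2d* are shown, since these 3 genes had the largest differences between the treated groups. Promoters of 300 bases (250 before and 50 after the start, RefSeq, GRCm38.p6) were found for 7 of the 10 genes, and not for *Kmt2b*, *Ash2l* and *Kdm5a*. Capitals mark each match to the GC box GGGCGG, the site known for SP1 and related factors, on either strand, where neighbouring matches may overlap.
*Kmt2a*, chr9:44881240-44881539, minus strand: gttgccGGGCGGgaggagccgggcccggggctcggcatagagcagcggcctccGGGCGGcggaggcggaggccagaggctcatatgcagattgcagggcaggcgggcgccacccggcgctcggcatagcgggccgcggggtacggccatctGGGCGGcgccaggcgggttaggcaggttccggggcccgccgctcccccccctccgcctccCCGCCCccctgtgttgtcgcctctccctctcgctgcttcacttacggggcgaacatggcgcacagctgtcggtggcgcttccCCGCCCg
*Kmt2c*, chr5:25498734-25499033, minus strand: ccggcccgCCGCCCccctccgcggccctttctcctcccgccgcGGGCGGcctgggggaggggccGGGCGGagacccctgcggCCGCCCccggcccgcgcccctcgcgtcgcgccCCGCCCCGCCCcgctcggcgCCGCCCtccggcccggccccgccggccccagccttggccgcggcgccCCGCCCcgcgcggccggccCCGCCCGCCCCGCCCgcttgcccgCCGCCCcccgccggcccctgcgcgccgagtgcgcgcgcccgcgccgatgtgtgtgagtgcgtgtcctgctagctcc
*Kmt2d*, chr15:98871156-98871455, minus strand: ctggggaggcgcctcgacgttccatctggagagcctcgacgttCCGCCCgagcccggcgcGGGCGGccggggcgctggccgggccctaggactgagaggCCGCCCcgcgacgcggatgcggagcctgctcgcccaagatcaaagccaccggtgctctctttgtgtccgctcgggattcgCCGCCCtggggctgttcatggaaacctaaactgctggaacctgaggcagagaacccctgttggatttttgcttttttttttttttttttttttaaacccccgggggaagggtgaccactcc
The GC box matched 5 times in the *Kmt2a* window, 12 times in that of *Kmt2c* and 4 times in that of *Kmt2d*, and 35.9% of all 27025 promoters held at least 1 match. These windows were rich in G and C (75.7%, 88.0% and 62.7%, against a median of 52.7%) and held 36, 56 and 27 CpG dinucleotides (median 7). The windows of the other 4 genes found held fewer, with 44.0% G and C, 0 GC boxes and 16 CpG for *Rbbp5*, 53.3%, 1 and 11 for *Men1*, 54.7%, 1 and 17 for *Kdm5b*, and 59.0%, 2 and 22 for *Wdr5*. No match to the ETS core CCGGAAG (in 9.12% of promoters) or to the CRE TGACGTCA (1.88%) was found in the 7 windows.

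Among the subunits, *Wdr5* and *Ash2l* were the most abundant in the mean of every group. *Wdr5* (chr2:27515157-27536535, plus strand), the scaffold of the core, had 164 and 185 TPM in WT Aundiff, 246 and 237 in WT Adiff, 8.27 and 16.7 in PRC1ctrl at 2 mo, 14.01 and 42.1 in PRC1cKO at 2 mo, 163 and 171 in treated PRC1ctrl, and 168 and 189.7 in treated PRC1cKO. Both WT Adiff libraries were above all others and the 2 mo libraries below them. *Ash2l* (chr8:25815996-25847694, minus strand), which helps the core to activate the enzymes, had, in that order, 157 and 152, 205 and 180.2, 53.1 and 156, 85.3 and 144, 180.2 and 167, and 168 and 173 TPM. Its groups lay close together, and both 2 mo groups were spread widely. *Rbbp5* (chr1:132477365-132505659, plus strand), the partner of ASH2L, had 38.8 and 42.6, 42.4 and 41.5, 5.43 and 7.33, 6.75 and 11.8, 61.1 and 56.6, and 48.1 and 50.2 TPM in the same order. Its WT groups overlapped, and the treated groups stood slightly above them. *Men1* (chr19:6334979-6340891, plus strand) had 38.5 and 42.7, 65.3 and 82.4, 1.3 and 2.11, 2.01 and 5.70, 59.2 and 70.9, and 52.2 and 55.6 TPM. The 4 libraries of the 2 mo arm were under 6 TPM, and WT Adiff overlapped treated PRC1ctrl at the top.

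The demethylase genes had more transcript per length than any Kmt2 gene in WT cells, and their orders over the groups differed. *Kdm5a* (chr6:120364124-120444574, plus strand), which encodes the retinoblastoma-binding demethylase, had 144 and 127 TPM in WT Aundiff, 269 and 172 in WT Adiff, 196 and 160.3 in PRC1ctrl at 2 mo, 253 and 176 in PRC1cKO at 2 mo, 154 and 150.1 in treated PRC1ctrl, and 99.0 and 109 in treated PRC1cKO. By group means it was the only member not lower in the 2 mo arm than in WT Aundiff, and treated PRC1cKO was lowest. *Kdm5b* (chr1:134560171-134635285, plus strand), a demethylase abundant in testis, had 257 and 257, 178 and 143, 28.6 and 51.4, 24.95 and 50.3, 276 and 267, and 183 and 234 TPM in the same order. WT Aundiff and treated PRC1ctrl were highest, WT Adiff was clearly lower, and the 2 mo groups overlapped at the bottom. As a result, *Kdm5b* exceeded *Kdm5a* 1.79 and 2.02 times in WT Aundiff, and in WT Adiff the ratio was 0.663 and 0.834.

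With differentiation in WT, the promoter methyltransferase *Kmt2b* and the subunits *Men1* and *Wdr5* rose, and the demethylase *Kdm5b* fell. This comparison asks which genes change as undifferentiated cells become differentiating ones. *Men1* was higher in Adiff by 0.84 ± 0.16 (log2 of TPM + 1, difference ± SE, 2 against 2, limma, adjusted p = 0.0109), a 1.79-fold difference. *Kmt2b* was higher by 0.68 ± 0.16 (adjusted p = 0.0198) and *Wdr5* by 0.47 ± 0.12 (adjusted p = 0.0257). For *Kdm5b* the difference was -0.68 ± 0.14 (adjusted p = 0.0130), and in all 4 genes the groups did not overlap. Thus 3 of 10 genes were called higher and 1 lower at an adjusted p under 0.05, where 23.4% and 14.7% of the 15470 genes tested were called higher and lower. The shares of members called were close to those of all genes. In size, 83.5% of all tested genes lay below *Men1*, 77.3% below *Kmt2b*, 67.8% below *Wdr5* and 16.1% below *Kdm5b*. *Kmt2a* (0.69 ± 0.23, adjusted p = 0.0535) and *Kdm5a* (0.66 ± 0.22, adjusted p = 0.0537) did not pass the test. Nor did *Ash2l* (0.31 ± 0.12), *Rbbp5* (0.05 ± 0.14), *Kmt2c* (-0.13 ± 0.19) and *Kmt2d* (-0.21 ± 0.28). The median over the 10 genes was 0.39, against 0.15 over all genes.

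The calls in WT were close to the threshold. Scaling by median-of-ratios factors, which brought the median of all genes to -0.0033, left *Men1* higher and *Kdm5b* lower, and *Kmt2b* (0.50, adjusted p = 0.0611) and *Wdr5* (0.30, adjusted p = 0.0826) were no longer called, while the split over all genes became 15.9% higher and 18.3% lower. Leaving out WT Aundiff replicate 1 or replicate 2 ended the calls of *Kmt2b* (adjusted p = 0.0743 and 0.0893), *Wdr5* (0.197 and 0.0828) and *Kdm5b* (0.0686 and 0.0670), and *Men1* lost its call without replicate 1 (0.0595). With a filter on a mean of 5 TPM, *Kmt2a* (adjusted p = 0.0431) and *Kdm5a* (adjusted p = 0.0388) were called higher as well. Without WT Adiff replicate 2, *Kdm5a* (0.98, adjusted p = 0.000111) and *Kmt2a* (0.82, adjusted p = 0.0280) were called higher. In a fit over all 12 libraries none of the 10 was called. An exact permutation test of 2 libraries against 2 cannot give a two-sided p below 0.333, so these p-values rest on variances that limma pools across genes, and they measure the spread between libraries of pooled cells. Markers of differentiating spermatogonia (9 genes) summed to 651 to 713 TPM in Aundiff and 2273 to 2392 TPM in Adiff, and those of undifferentiated cells (12 genes) to 1085 to 1212 and 298 to 339 TPM. Macrophage markers (6 genes) summed to 70.2 to 115.7 TPM in Aundiff and 36.4 to 40.0 TPM in Adiff, with *Adgre1* under 1 TPM in both groups. Spermatid markers (8 genes, 811 to 887 and 559 to 746 TPM), Sertoli cell markers (7 genes, 53.1 to 57.6 and 33.4 to 33.5 TPM) and endothelial markers (4 genes, 8.37 to 17.9 and 4.38 to 6.73 TPM) were lower in Adiff too, and the part of these cells in the result was not tested. In such bulk samples, fewer cells of a type and less RNA per cell cannot be told apart.

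**Figure D2:**
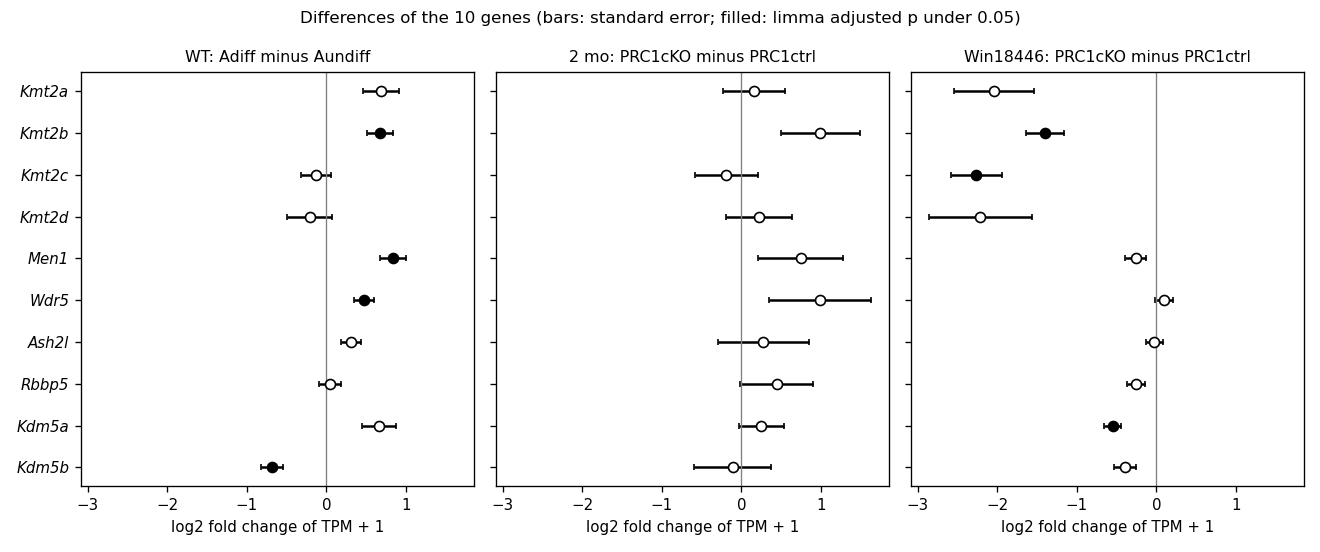
Log2 fold change of TPM + 1 (x axis) of the 10 genes in the 3 comparisons of 2 against 2 libraries, with bars for the standard error and filled points for a limma adjusted p under 0.05. In WT 4 points are filled, none at 2 mo and 3 after Win18446, where the 4 Kmt2 genes lie furthest to the left.

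At 2 mo no member passed the test between the libraries labelled PRC1cKO and PRC1ctrl. None of the 10 passed an adjusted p of 0.05 in limma and none had an unadjusted p under 0.05, where 0.222% of 13953 genes were called higher and 1.94% lower. *Kmt2b* had the largest difference (0.99 ± 0.50, adjusted p = 0.456), with values near 1 TPM, where the added 1 shrinks fold changes. *Wdr5* differed by 0.99 ± 0.64 and *Men1* by 0.75 ± 0.53, and their groups overlapped. The enhancer enzymes differed by -0.19 ± 0.40 (*Kmt2c*) and 0.22 ± 0.42 (*Kmt2d*). For *Kdm5a* the difference was 0.25 ± 0.28 and for *Kdm5b* -0.11 ± 0.49. The standard errors were 0.28 to 0.64. The median over all tested genes was 0.22 in this arm, and median-of-ratios scaling brought it to -0.0053. Spermatid markers (8 genes) summed to 774 to 1807 TPM in PRC1ctrl and 50.3 to 58.5 TPM in PRC1cKO, where 7 of the 8 were under 1 TPM. Markers of undifferentiated spermatogonia (12 genes) summed to 956 to 1231 TPM in PRC1ctrl and 457 to 533 TPM in PRC1cKO, those of differentiating ones (9 genes) to 311 to 455 and 708 to 967 TPM, and those of meiotic spermatocytes (8 genes) to 607 to 649.9 and 774 to 826 TPM. Leydig cell markers (6 genes) summed to 1.04 to 1.21 and 20.98 to 48.0 TPM, all 6 being under 1 TPM in PRC1ctrl, and macrophage markers (6 genes, 3 of them under 1 TPM in both groups) to 9.04 to 118.9 and 139.9 to 705 TPM. The part of these cells in the members' values was not tested.

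After Win18446 the methyltransferases *Kmt2b* and *Kmt2c* and the demethylase *Kdm5a* fell in the libraries labelled PRC1cKO, and no subunit passed the test. This comparison looks at the loss of PRC1 in cells kept from differentiating by the drug. *Kmt2c* fell most, with a difference of -2.27 ± 0.32 (adjusted p = 0.00779, 4.81-fold). *Kmt2b* differed by -1.40 ± 0.23 (adjusted p = 0.00901, 2.64-fold), and *Kdm5a* by -0.55 ± 0.11 (adjusted p = 0.0113, 1.46-fold). Thus 0 of 10 were called higher and 3 of 10 lower, where 5.87% and 26.7% of the 16521 genes tested were called higher and lower, so that the share of members called lower was close to that of all genes. *Kmt2d* (-2.21 ± 0.65, adjusted p = 0.105) and *Kmt2a* (-2.04 ± 0.51, adjusted p = 0.0551) were as far apart in their means as *Kmt2c*, and their groups did not overlap, but they did not pass the test. In size, the differences of *Kmt2a*, *Kmt2c* and *Kmt2d* had only 0.720% to 1.17% of all tested genes below them. *Kdm5b* differed by -0.39 ± 0.14 (adjusted p = 0.0745), *Men1* by -0.26 ± 0.13 and *Rbbp5* by -0.25 ± 0.11, none of them called. *Wdr5* (0.10 ± 0.11) and *Ash2l* (-0.03 ± 0.11) differed by less than their error, and their groups overlapped.

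Among these results, the 3 calls held with median-of-ratios scaling, which moved the median of all genes from -0.19 to -0.0026 and their split to 13.5% higher and 18.9% lower. *Kmt2a* and *Kmt2d* were called without the trend or robust options (adjusted p = 0.0286 and 0.0325). Each stayed uncalled in 10 of the alternative fits, those with a library left out included, and was called in 5. *Kmt2c* stayed called with each of the 4 libraries left out in turn. *Kmt2b* lost its call without PRC1ctrl replicate 2 (-1.29, adjusted p = 0.0614) and *Kdm5a* without PRC1cKO replicate 1 (-0.48, adjusted p = 0.0781). Without PRC1cKO replicate 1, *Kmt2a* (-1.44, adjusted p = 0.0408) and *Kmt2d* (-1.46, adjusted p = 0.0286) were called, and without PRC1cKO replicate 2 they were called as well (-2.64, adjusted p = 0.0155, and -2.97, adjusted p = 0.0143), together with *Kdm5b* (-0.57, adjusted p = 0.0468). Marker sums of some other cells differed between the groups, and others overlapped. Overlapping sums in PRC1ctrl and PRC1cKO were those of Sertoli cells (7 genes, 116.6 to 186.7 and 125.1 to 199.3 TPM) and meiotic spermatocytes (8 genes, 488 to 514 and 471 to 535 TPM). Those of peritubular myoid cells (4 genes, 22.87 to 38.62 and 28.05 to 36.5 TPM) overlapped as well. Spermatid markers (8 genes) summed to 123 to 134 TPM in PRC1ctrl and 17.8 TPM in PRC1cKO (7 of 8 under 1 TPM), Leydig cell markers (6 genes) to 82.1 to 397 and 20.6 to 73.2 TPM, and macrophage markers (6 genes) to 36.9 to 52.1 and 86.4 to 134.9 TPM. Markers of undifferentiated spermatogonia (12 genes) summed to 967 to 1070 and 745 to 845 TPM, those of differentiating ones (9 genes) to 705 to 731 and 839 to 930.2 TPM, and endothelial markers (4 genes) to 14.2 to 14.6 and 10.3 to 11.5 TPM. The part of these cells in the result was not tested.

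The treated PRC1ctrl libraries, rather than the treated PRC1cKO libraries, stood apart from WT Aundiff, which were made with the same kit. On the log2 scale treated PRC1ctrl minus WT Aundiff came to 2.00 for *Kmt2a*, 1.3 for *Kmt2b*, 2.52 for *Kmt2c* and 3.24 for *Kmt2d*, which is 2.46-fold to 9.47-fold. Treated PRC1cKO minus WT Aundiff came to -0.04, -0.10, 0.25 and 1.03 for the same genes. *Wdr5* (-0.06), *Ash2l* (0.17), *Kdm5a* (0.17) and *Kdm5b* (0.08) were near WT Aundiff in treated PRC1ctrl, and *Men1* (0.66) and *Rbbp5* (0.52) lay above it. In treated PRC1cKO, *Kdm5a* (-0.38) and *Kdm5b* (-0.31) lay below WT Aundiff, further from it than in treated PRC1ctrl. The subunits differed there by 0.40 (*Men1*), 0.27 (*Rbbp5*), 0.14 (*Ash2l*) and 0.04 (*Wdr5*). These differences join treatment, strain and genotype, which cannot be told apart, and they were not tested.

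Transcript length moved with this pattern. The longest transcripts of *Kmt2d* (19823 nt), *Kmt2a* (16470 nt), *Kmt2c* (14967 nt), *Kdm5a* (10944 nt), *Kdm5b* (8714 nt) and *Kmt2b* (8469 nt) exceed 8 kb, and those of the 4 subunits are 2890 to 3702 nt. After Win18446 the median difference between PRC1cKO and PRC1ctrl was -0.01 for genes with transcripts of 1 to 2 kb, -0.34 for 4 to 8 kb and -0.69 for 8 kb or more. Of the 789 tested genes with transcripts of 8 kb or more 58.2% were called lower, against 25.1% of shorter ones. Transcripts of 8 kb or more held 3.27% and 3.59% of TPM in the treated PRC1ctrl libraries, 1.92% and 2.28% in treated PRC1cKO, and 2.04% and 2.10% in WT Aundiff. Treated PRC1ctrl minus WT Aundiff had a median of 0.81 for these long genes and 0.30 for all. Within the long genes, *Kmt2a*, *Kmt2c* and *Kmt2d* still lay low after Win18446, with 3.68%, 1.65% and 2.03% of them below, and *Kmt2b* had 14.6% below. *Kdm5a* and *Kdm5b* had 58.3% and 68.8% below.

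When the fold changes were centred in bins of transcript length, *Kmt2c* (-1.87, adjusted p = 0.00673) and *Kmt2b* (-1.0, adjusted p = 0.0128) were still called after Win18446. *Kdm5a* was not (-0.15, adjusted p = 0.329), and *Kmt2a* (-1.64, adjusted p = 0.0628) and *Kmt2d* (-1.82, adjusted p = 0.118) kept differences of that size without a call. *Kdm5b* changed sign (0.0070). Whether length in itself, the library preparation or the state of the RNA had a part in the members' values was not tested.

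**Figure D3:**
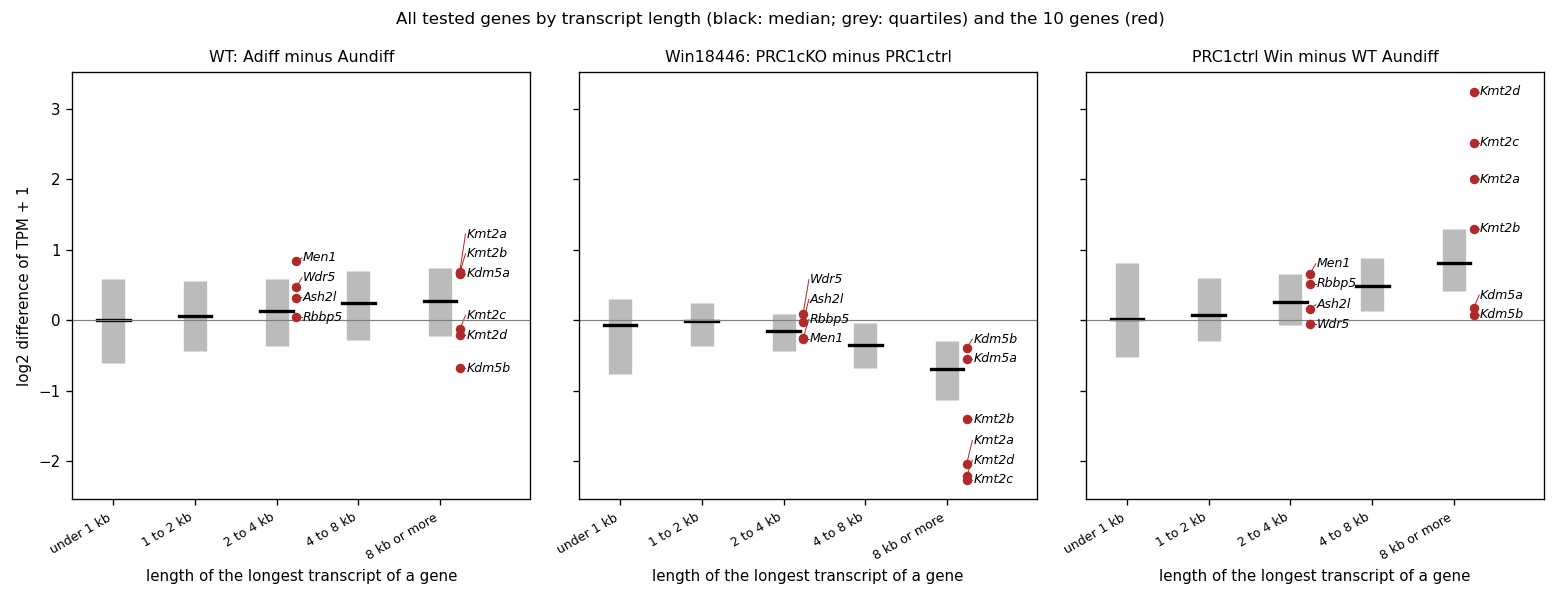
Log2 difference of TPM + 1 (y axis) for all tested genes by the length of the longest transcript (black, median; grey, quartiles), with the 10 genes in red, in WT, after Win18446, and for treated PRC1ctrl minus WT Aundiff. The medians fall to -0.69 in the longest bin of the middle panel and rise to 0.81 in that of the right panel, and Kmt2a, Kmt2c and Kmt2d lie outside the quartiles of that bin in both.

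The difference between the labels was itself compared between the arms, and *Kmt2c* was the only member to pass that test. The difference after Win18446 minus that at 2 mo was -2.08 ± 0.47 for *Kmt2c* in limma (interaction over 8 libraries, adjusted p = 0.0461). This made 0 of 10 genes called higher and 1 of 10 lower, where 2.77% of 18354 genes were called higher and 5.03% lower. *Kmt2d* (-2.44 ± 0.75, adjusted p = 0.104), *Kmt2b* (-2.39 ± 0.61, adjusted p = 0.0635) and *Kmt2a* (-2.20 ± 0.59, adjusted p = 0.0731) had larger interaction terms with larger errors. The term of the subunits ran from -0.30 (*Ash2l*) to -1.01 (*Men1*), and that of *Kdm5a* was -0.80 ± 0.31 (adjusted p = 0.172). The call of *Kmt2c* was lost without each of the 8 libraries in turn (adjusted p = 0.0675 to 0.235) and with median-of-ratios scaling (-1.43, adjusted p = 0.199), which moved the median of all genes from -0.41 to 0.063 and the split to 4.58% higher and 1.81% lower. Treatment and library kit cannot be told apart in this term.

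Base composition and transcript length moved with the level of all genes in the 2 mo arm. Between PRC1ctrl at 2 mo and WT Aundiff the median log2 difference of all genes was 0.56 where the longest transcript held under 45% G and C, -0.46 from 45 to 50%, -1.37 from 50 to 55% and -2.25 from 55%. The 3 members above 55% were *Kmt2b* (59.1%), *Kmt2d* (58.4%) and *Men1* (57.0%), with differences of -4.86, -2.63 and -3.96. *Kdm5a* (43.3%) differed by 0.39 and *Ash2l* (44.0%) by -0.75, as the members with the least G and C. *Wdr5* (51.5%) differed by -3.77, *Kmt2a* (50.6%) by -1.47, *Kdm5b* (47.6%) by -2.71, *Kmt2c* (47.6%) by -0.56 and *Rbbp5* (46.9%) by -2.51. Against genes of like GC content, 6 of the 10 (*Kmt2b*, *Men1*, *Wdr5*, *Ash2l*, *Rbbp5* and *Kdm5b*) lay below the lower quartile of their bins, and *Kmt2a*, *Kmt2c*, *Kmt2d* and *Kdm5a* between the quartiles. By transcript length, the median of all genes was 0.55 under 1 kb, -0.21 from 1 to 2 kb, -1.04 from 2 to 4 kb, -1.26 from 4 to 8 kb and -1.13 from 8 kb. Against genes of like length, *Ash2l*, *Kmt2a* and *Kmt2c* lay between the quartiles and *Kdm5a* above them. The rest, *Kmt2d* among them, lay below the lower quartile. These differences cross library kit, strain and genotype, which cannot be told apart, and the 2 mo arm was tested only within itself.

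**Figure D4:**
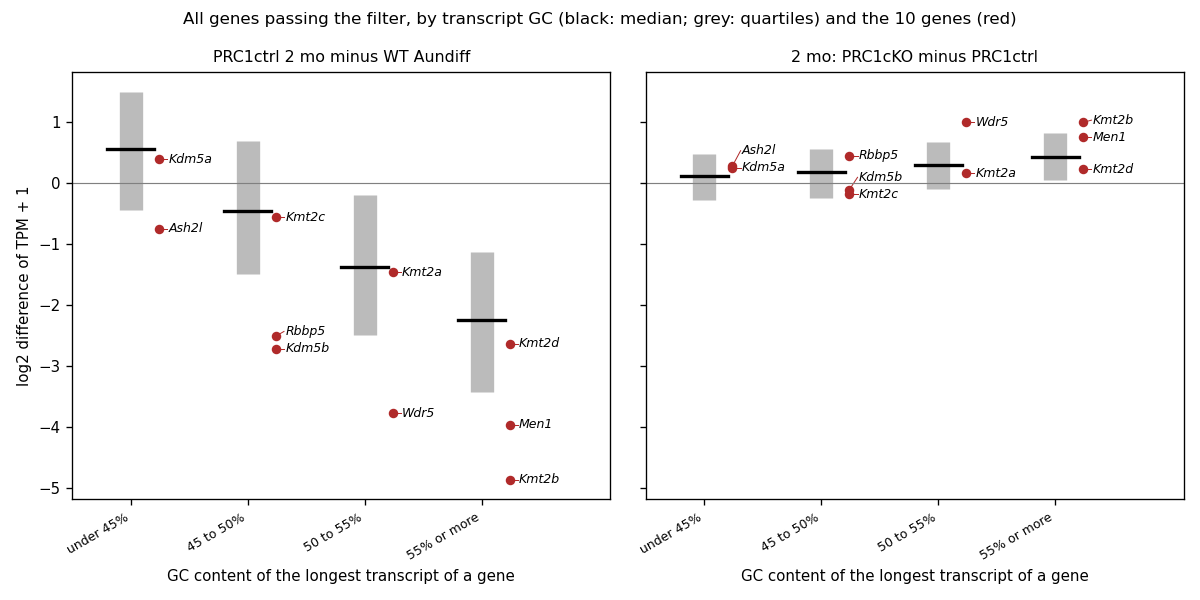
Log2 difference of TPM + 1 (y axis) by the GC content of the longest transcript (black, median; grey, quartiles), with the 10 genes in red. On the left, 2 mo PRC1ctrl minus WT Aundiff falls from a median of 0.56 in the bin under 45% to -2.25 in the bin of 55% or more, with Kmt2b lowest at -4.86. On the right, the medians of the difference between the labels at 2 mo lie between 0.12 and 0.42.

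Within each library, the balance of writers and erasers was read from the summed TPM of the 4 Kmt2 genes over that of *Kdm5a* and *Kdm5b*. Its log2 was -2.44 and -2.25 in WT Aundiff, -2.14 and -1.41 in WT Adiff, -4.43 and -4.24 in PRC1ctrl at 2 mo, -4.73 and -3.99 in PRC1cKO at 2 mo, -0.57 and -0.17 in treated PRC1ctrl, and -2.18 and -1.46 in treated PRC1cKO. Summed TPM of *Kdm5a* and *Kdm5b* thus exceeded that of the 4 Kmt2 genes in every library. It did so least in treated PRC1ctrl, where the Kmt2 genes made up 40.2% and 47.1% of the sum. The related genes *Setd1a*, *Setd1b*, *Kdm5c* and *Kdm5d* were not part of these sums. The groups at 2 mo overlapped, and treated PRC1cKO overlapped WT Adiff. The core subunits *Wdr5*, *Ash2l* and *Rbbp5* together exceeded the Kmt2 genes by 2.28 and 2.23 (log2) in WT Aundiff, 2.29 and 1.95 in WT Adiff, 2.63 and 1.73 in treated PRC1cKO, and only 0.49 and 0.09 in treated PRC1ctrl. No test was run on these ratios, for which an exact permutation test of 2 libraries against 2 cannot give a two-sided p below 0.333, and they carry the length and GC patterns of the Kmt2 genes.

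**Figure D5:**
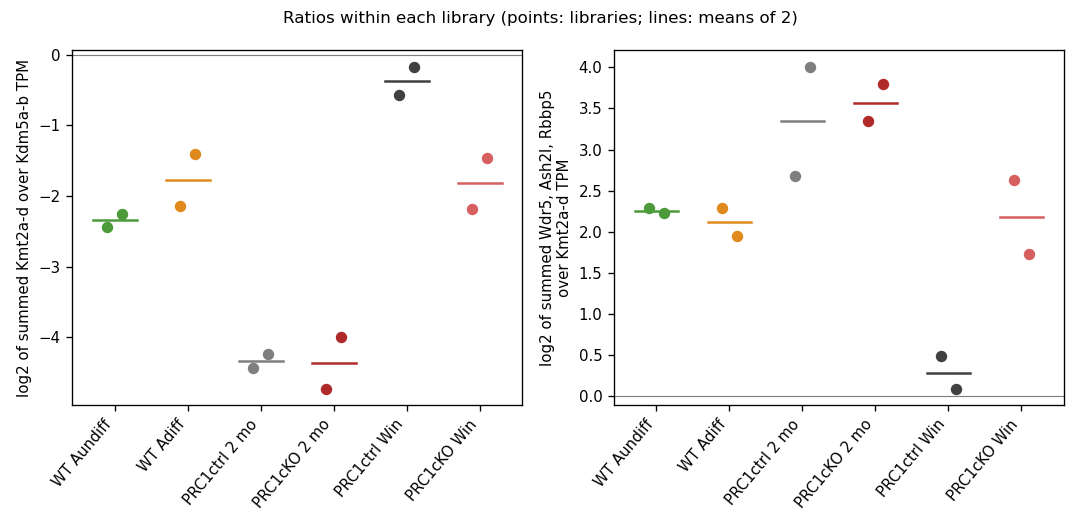
Log2 ratios of summed TPM within each library (points) and their group means (lines), for Kmt2 over Kdm5 genes on the left and core subunits over Kmt2 genes on the right. The treated PRC1ctrl libraries lie between -0.57 and -0.17 on the left, above all others, and between 0.09 and 0.49 on the right, below all others.

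The wider H3K4 machinery was read from 33 further genes in 4 lists, all of them measured. In WT, 6 of the 33 were higher and 7 lower in Adiff (18.2% and 21.2%), where 23.4% and 14.7% of all genes tested were called higher and lower. The largest were *Hcfc2*, a relative of the complex subunit gene *Hcfc1* (23.2 to 93.3 TPM in the mean, 1.95 ± 0.27, adjusted p = 0.00373), and *Prdm9*, the meiotic H3K4 methyltransferase that places recombination sites (1.11 to 6.59 TPM, 1.86 ± 0.32, adjusted p = 0.00751). *Paxip1*, a subunit specific to the KMT2C and KMT2D complexes, rose from 14.7 to 46.5 TPM (1.59 ± 0.16, adjusted p = 0.00174). Lower in Adiff by more than 1 were the methyltransferases *Setd7* (-1.63 ± 0.30) and *Setd1b* (-1.23 ± 0.25), the demethylase and reader gene *Phf2* (-1.64 ± 0.26), the LSD1 partner *Phf21a* (-1.39 ± 0.18) and the remodeller gene *Chd1* (-1.0 ± 0.21). With median-of-ratios scaling the split was 4 higher and 9 lower, and that of all genes 15.9% and 18.3%. *Setd1b* lost its call without WT Aundiff replicate 2 (-1.02, adjusted p = 0.0835), and *Chd1* without replicate 1 (-1.08, adjusted p = 0.0557) or replicate 2 (-0.93, adjusted p = 0.0820). By list, the other methyltransferases had 2 higher and 2 lower of 4, the other subunits 4 higher and 0 lower of 11, the other demethylases and LSD1 partners 0 and 1 of 6, and the readers 0 and 4 of 12.

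At 2 mo none of the 30 of these genes that were tested was called in limma, where 0.222% of 13953 genes were called higher and 1.94% lower. An unadjusted p under 0.05 in limma was found for 3 of the 30 and for 1985 of all 13953. With median-of-ratios scaling 1 was called, where 0.559% of all genes were called higher and 5.53% lower. With the replicate block 4 were called, and the share of all genes is not given for that fit. *Prdm9* had 0.62 and 0.67 TPM in PRC1ctrl and 4.87 and 6.67 TPM in PRC1cKO (2.03 ± 0.40, adjusted p = 0.0802). The paper, which tested read counts with DESeq2, reports *Prdm9* among the genes significantly upregulated in PRC1cKO at 2 mo. After Win18446 none was higher and 16 of 33 were lower in PRC1cKO, against 26.7% of all genes tested, with a median of -0.42 against -0.19. They were 3 of the 4 other methyltransferases, 6 of the 11 other subunits, 4 of the 6 other demethylases and LSD1 partners, and 3 of the 12 readers. Differences beyond -1 were those of *Bptf*, a reader in the NURF remodeller (-1.83 ± 0.34), *Bod1l*, a SETD1A partner (-1.72 ± 0.28), *Chd1* (-1.24 ± 0.17), *Setd1b* (-1.10 ± 0.22), *Paxip1* (-1.10 ± 0.12), *Setd7* (-1.09 ± 0.13) and *Rcor1*, an LSD1 corepressor (-1.04 ± 0.17). Centred in bins of transcript length, *Bptf* (-1.43) and *Bod1l* (-1.325) stayed beyond -1. *Paxip1* (-0.93), *Rcor1* (-0.87), *Chd1* (-0.84), *Setd1b* (-0.71) and *Setd7* (-0.70) did not, though each was still called. With median-of-ratios scaling 12 of the 33 (36.4%) were lower, against 18.9% of all genes. *Bptf* lost its call without PRC1ctrl replicate 1 (-1.98, adjusted p = 0.222) or replicate 2 (-1.68, adjusted p = 0.277), and *Setd1b* without PRC1cKO replicate 1 (-0.91, adjusted p = 0.0785). *Dpy30*, the remaining core subunit, had 125 and 133 TPM in the means of the treated groups (0.09 ± 0.10) and, like *Wdr5* and *Ash2l*, was not called there. Unlike those genes, *Dpy30* stood higher in the 2 mo arm (499 TPM in PRC1ctrl and 431 TPM in PRC1cKO, means) than in WT Aundiff (173 TPM).

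Genes whose log2(TPM + 1) ran most like that of a member over the 12 libraries were sought among 13142 protein-coding genes. For *Kmt2a* they were *Hectd4* (Pearson's r 0.993) and *Smg1* (0.986), for *Kmt2c* *Asxl3* (0.984), and for *Kmt2d* *Pigb* (0.989) and *Bcl7a* (0.986). The profile of *Kmt2b* was closest to *Eps15l1* (0.997) and *Prpf4* (0.996). *Men1* was closest to *Slc38a10* (0.999) and *Gtse1* (0.999), *Wdr5* to *Arfgap2* (0.998) and *Scamp4* (0.998), and *Rbbp5* to *Ammecr1l* (0.998) and *Lrig1* (0.997). *Kdm5b* was closest to *Stau1* (0.995) and *Hadha* (0.994), *Ash2l* to *Pradc1* (0.969), and *Kdm5a* to *Washc4* (0.931) and *Utp14a* (0.910). Among members, *Men1* correlated with *Kmt2b* at 0.988 and with *Wdr5* and *Rbbp5* at 0.987 and 0.986, and *Kdm5a* was negatively correlated with each of the others (-0.18 to -0.55). Without the 4 libraries of the 2 mo arm, over 8 libraries, *Men1* and *Kmt2b* came to 0.686, *Men1* and *Wdr5* to 0.568, and *Men1* and *Rbbp5* to 0.318, and *Kdm5a* was positively correlated with 5 of the 9 others (0.382 with *Kmt2a* to 0.714 with *Ash2l*). *Kmt2a*, *Kmt2c* and *Kmt2d* correlated with each other at 0.886 to 0.931 over 12 libraries and at 0.808 to 0.966 over the 8. The libraries share kits and groups and are not independent points.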

How the data were processed

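The 12 RNA-seq libraries (6 groups of 2) were each made from a pool of sorted cells. Per the submitters' processing notes, tools included Trim Galore 0.6.6, HISAT2 2.2.1, HTSeq 1.6.0, DESeq2 1.28.1 and RSEM 1.3.3. The authors deposited TPM from RSEM for 55385 genes on GRCm38, and the read counts behind their own tests were not used here. Because TPM sums to a fixed total, genes that rise lower the values of the rest. Depth and counting error are unknown, and precision comes from 2 libraries per group.

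Here log2(TPM + 1) was tested with limma 3.58.1 in R 4.3.3 (trend and robust moderation, two-sided) on genes with at least 1 TPM in at least 2 of the libraries compared, without a replicate block, with Benjamini-Hochberg adjustment over all of them. A call is an adjusted p under 0.05. Transcript length and GC came from the longest transcript in gencode vM21 (99.565% of rows). The script was tested on simulated data. The members and lists were chosen with earlier results of these data known. The text names all members, listed genes called with an absolute log2 difference above 1 or flagged in the interaction, *Ring1* and *Rnf2*, and the 2 protein-coding genes most like each member (at least 1 TPM in at least 6 libraries). *Dpy30* and single marker genes were named after their values were seen. Alternatives were a pseudocount of 0.1, median-of-ratios and quantile scaling, no filter, a filter on a mean of 5 TPM, a replicate block, all 12 libraries, no trend or robust options, centring in 10 length bins, in 10 GC bins or in 5 by 5 bins, and leaving out each library. The GC and joint bins were chosen after seeing the data. Of the genes whose profile was most like that of a member, 2 were named for most members, and a few that the rule picked are not reported here.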

Additional observations from a re-analysis of the deposited data

Results flagged for a closer look

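The difference between PRC1cKO and PRC1ctrl was not the same in both arms for 4 genes of the H3K4 lists, by the interaction term in limma over 8 libraries. All 4 terms were negative (1 of 10 members and 3 of 33 related genes), where 5.03% of 18354 genes were called lower and 2.77% higher. For *Kmt2c* the term was -2.08 (adjusted p = 0.0461), with a difference of -2.27 after Win18446 and -0.19 at 2 mo. The term of *Prdm9* was -2.21 (adjusted p = 0.0294), with -0.18 after Win18446 and 2.03 at 2 mo. For *Paxip1* it was -1.67 (adjusted p = 0.0456), with -1.10 and 0.58, and for *Chd1* -1.38 (adjusted p = 0.0479), with -1.24 and 0.14. *Kmt2c* and *Chd1* lost the call without each of the 8 libraries in turn, and *Prdm9* and *Paxip1* without each but 2 mo PRC1cKO replicate 1, over adjusted p-values of 0.0487 to 0.126 for *Prdm9*, 0.0421 to 0.224 for *Paxip1* and 0.0590 to 0.234 for *Chd1*. All 4 lost the call with a pseudocount of 0.1 (adjusted p = 0.0558 to 0.0937) and without the filter (adjusted p = 0.0601 to 0.0829). With median-of-ratios scaling *Prdm9* was called (-2.01, adjusted p = 0.0242), and *Paxip1* (-1.12, adjusted p = 0.0957) and *Chd1* (-0.79, adjusted p = 0.317) were not. The arms differ in both treatment and library kit, which cannot be told apart.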

How the results depend on the processing

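Of 1021 single-gene results under an alternative, 843 kept their direction and their side of the threshold, 103 lost a call, 48 gained one and 27 changed sign, none of the latter with a call in either fit. In WT the 4 members called became 2 without the filter, with median-of-ratios scaling, with quantile normalization and without the trend or robust options, 0 over all 12 libraries, 6 with a mean TPM of at least 5, 7 with GC bins, and 0 to 6 when 1 library was left out (0 without WT Aundiff replicate 1, 1 without replicate 2). The 13 related genes called there became 7 to 14 when 1 library was left out (7 without WT Aundiff replicate 2). At 2 mo the related genes called went from 0 to 1 with median-of-ratios scaling, to 1 with quantile normalization and to 3 over all 12 libraries. After Win18446 the 3 members called became 5 without the trend or robust options and 2 to 6 when 1 library was left out (6 without PRC1cKO replicate 2), and the 16 related genes became 8 without the filter, 10 with quantile normalization and 8 to 16 when 1 library was left out (8 without PRC1cKO replicate 1). The 1 member called in the interaction became 0 with a pseudocount of 0.1, without the filter, with a mean TPM of at least 5, with median-of-ratios scaling, with length bins and with length by GC bins, 2 with GC bins, 4 over all 12 libraries, and 0 to 1 when 1 library was left out. The 1 called with quantile normalization, and the 1 without 2 mo PRC1cKO replicate 1, was *Kmt2b* and not *Kmt2c*. Leaving out a library leaves 1 sample in its group, which is then assumed to vary like the others. The share of all genes called moved with the settings too. In WT it went from 23.4% higher and 14.7% lower to 17.41% and 16.85% with quantile normalization. After Win18446 it went from 5.87% and 26.7% to 13.5% and 14.6%. Outside the 2 scalings that share is not given here, so those counts are not results about the listed genes alone. The cause of these shifts was not tested.

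Replicate numbers were tried as a block. Over genes, the deviations of same-numbered libraries from the means of their groups correlated (0.158 in WT, 0.381 at 2 mo and 0.122 after Win18446), but nothing states that they were prepared together and each comparison has only 2 pairs, so the block was not used for the results. With the replicate block, 6 members (*Ash2l* and *Kdm5a* in addition, adjusted p = 0.0326 and 0.0156) and 16 related genes were called in WT, 1 member (*Wdr5*) and 4 related genes were called at 2 mo, 5 members (*Kmt2a* and *Kmt2d* in addition, adjusted p = 0.00251 and 0.0368) and 21 related genes after Win18446 and 4 members in the interaction. The share of all genes called with the block is not given here, so these counts are not results about the listed genes alone.

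The changes of sign were these. In WT, *Rbbp5* came to -0.13 with median-of-ratios scaling, -0.15 with quantile normalization and -0.019 to 0.11 when 1 library was left out, and *Kmt2d* to -0.54 to 0.12 when 1 was left out. At 2 mo, median-of-ratios scaling gave -0.050 for *Kmt2a* and -0.032 for *Kdm5a*, GC bins gave -0.0096 for *Kmt2d*, and leaving out 1 library gave -0.16 to 0.49 for *Kmt2d*, -0.49 to 1.05 for *Ash2l*, -0.014 to 0.51 for *Kdm5a* and -0.60 to 0.38 for *Kdm5b*. After Win18446, *Ash2l* came to 0.18 with median-of-ratios scaling, 0.0058 with length bins, 0.0090 with GC bins, 0.030 with length by GC bins and -0.079 to 0.029 when 1 library was left out, and *Kdm5b* to 0.0070 with length bins. In the interaction, *Ash2l* came to 0.34 with median-of-ratios scaling and -1.07 to 0.47 when 1 library was left out, and *Kdm5b* to 0.36 with median-of-ratios scaling, 0.079 with length bins, 0.015 with length by GC bins and -0.77 to 0.21 when 1 library was left out.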
